A study of Drosophila melanogaster with 4 samples.

Results

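Sin3A peaks on 3R, the right arm of the third chromosome of Drosophila melanogaster, are described here. They are all peaks of the deposited list whose sequence name is exactly 3R, 356 of 1371 (26.0%), and the peaks on 2L (188), 3L (174) and X (286) are set beside them. The rule goes by sequence name and uses no measured value, although it was written with earlier results of these data known. The list comes from chromatin immunoprecipitation and sequencing (ChIP-seq) in Kc167, an embryo-derived cell line labelled female with the genotype se/e. The labels give 2 ChIP libraries, precipitated with the rabbit antibody Sin3A-RC, and 2 input libraries of sonicated chromatin without precipitation. Both kinds came from cells of the same line cross-linked with 1.8% formaldehyde for 15 min. Nothing in the labels says whether the libraries came from separate cultures, and 1 cell line stands for no tissue. The deposited list holds 1 score per peak for the whole series and no value per library. No replicate error can therefore be given, the depth is unknown, and every p-value below describes the peaks of this list, taken as independent units, and not the spread between cultures.

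Sin3A is a large scaffold protein that does not bind DNA by itself. Its paired amphipathic helix domains dock DNA-binding factors, and another part of the protein holds a histone deacetylase, the class of enzyme that removes acetyl groups from histone tails and is mostly linked with lower transcription. In Drosophila the deacetylase is HDAC1, also called Rpd3. The complex is known to act on genes of cell growth, metabolism and development, and much of it sits near gene starts. The 3R arm is the home of both Hox gene complexes of the fly, Antennapedia and bithorax. Coordinates are those of FlyBase release 5, 1-based, and on this arm the low coordinates lie next to the centromere. No gene was assigned to a peak, because the gene table used here follows release 6 and positions of the 2 releases cannot be mixed. For the same reason no sequence is printed.

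The peaks of 3R covered 150 kb, or 0.541% of the 27.8 Mb between the midpoints of the first and the last peak. Widths ran from 201 to 1351 bp around a median of 381 bp (exact 95% interval 352 to 403 bp), and 50% of them fell between 283 and 521 bp. The authors' score had a median of 17.97 (exact 95% interval 16.5 to 19.2), quartiles of 12.4 and 27.3, and a range from 7.08 to 111. There were 27 peaks with a score over 50 (7.58%). Between the lowest score and the median the range was narrow, and the upper tail was long.

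A score means more once its scale is known. Neither the file header nor the labels name the statistic, so it was read from the values. Scores shared by at least 6 peaks of the whole list lay on a series of −log10 upper-tail Poisson probabilities with a single mean of 61.3. Of 64 such scores 63 were within 0.01 of the series. A peak on the series is called here scored on the common background, which would be a mean pileup of 61.3 overlapping fragments across the genome. A peak off the series would have been scored against a different, local background. On this reading, which is an inference, each peak on the series has a whole-number pileup. On 3R 307 peaks were on the series and 49 off it (13.8%, exact 95% interval 10.4 to 17.8%).

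The 307 peaks on the common background had an inferred pileup with a median of 142 and a range from 107 to 309. Relative to the mean of 61.3 the median was 2.32 times, with quartiles of 2.06 and 2.72 times and a maximum of 5.04 times. At least 2 times the mean was reached by 252 of them (82.1%) and at least 3 times by 48 (15.6%). Most of these 307 peaks were thus about 2 to 3 times the background. Those above 4 times were the highest-scoring of them by construction, because the fold is read from the score. The peaks off the common background have no such value. Peaks on the common background had a median of 2.21 times on 2L (92 peaks), 2.33 times on 3L (120) and 2.35 times on X (252).

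The highest-scoring peak of the arm was 3R:8251552-8252205, 654 bp wide, with a score of 111, which ranked 4 in the whole list and stood at 5.04 times the common background. It opened a group of 4 peaks within 8372 bp. The other members were far lower. They scored 7.08 (3R:8254996-8255318), 23.0 (3R:8256766-8257123) and 12.5 (3R:8259698-8259923). The first of them was the lowest-scoring peak of the arm, so the highest and the lowest score of 3R lay 3.28 kb apart, midpoint to midpoint.

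The second highest-scoring peak was 3R:21877898-21878644, with a score of 96.5 (4.70 times the background) and a width of 747 bp. Peaks scoring 17.97 and 19.1 followed it within 7378 bp of its start. Behind the last of these began the longest stretch of the arm without a peak, 658 kb from 21885276 to 22543252. The peaks that border this stretch scored 19.1 and 8.92.

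The third highest-scoring peak was 3R:16927368-16928150, with a score of 92.2, and it was the highest of the peaks scored off the common background. Its fold over background cannot be read from the score. It closed a run of 6 consecutive peaks off the common background that spanned 47.5 kb. That run also held 3R:16880603-16881126 (score 83.2, sixth on the arm) and the widest peak of the arm, 3R:16881200-16882550, with 1351 bp and a score of 62.3. A stretch of under 50 kb therefore contained the peaks ranked 3, 6 and 11 by score on 3R. The stretch was picked after its values were seen. The other 3 peaks of the run scored 24.3, 17.4 and 27.0.

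The remaining peaks among the 10 highest-scoring lay apart from each other. On the common background were 3R:24948543-24949145 (score 84.7, 4.40 times), 3R:7788420-7788977 (83.4, 4.37 times), 3R:2949726-2950364 (82.8, 4.35 times) and 3R:1057545-1058373 (64.9, 3.88 times). Off it were 3R:21298815-21299289, with a score of 68.6, and 3R:58036-58867, with a score of 64.7. The last of these was the first peak of the arm on the centromere side, and its nearest neighbour was 101 kb away. Of the 10 highest-scoring peaks, 5 had another peak within 5 kb.

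The widest peaks were mostly not the highest-scoring. After the peak of 1351 bp came 3R:11618772-11619989 with 1218 bp and a score of 40.8, ranked 44 on the arm, and 3R:1485497-1486555 with 1059 bp and a score of 36.8. Next were 3R:11100275-11101325 (score 42.8) and 3R:24161208-24162258 (score 34.9), with 1051 bp each. At the other end, 12 peaks had the minimum width of 201 bp, and each of them was among the 89 lowest-scoring peaks. Next to the lowest score came 3R:215880-216080, with a score of 7.30, and 3R:5573683-5573965, with a score of 7.34.

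Wider peaks scored higher across the arm. With the 356 peaks ordered by score in 4 sets of 89, the median width was 247 bp for scores of 7.08 to 12.4, 339 bp for the next set, 393 bp for the third and 544 bp for scores of 27.6 to 111. Pearson's r was 0.562 and Spearman's rho 0.673 over the 356 peaks, given as a description because a single peak call gave both measures and neighbouring peaks share their surroundings. Spearman's rho was 0.801 among the 49 peaks off the common background and 0.647 among the 307 on it. It was 0.676 on 2L, 0.707 on 3L and 0.725 on X.

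**Figure D1:**
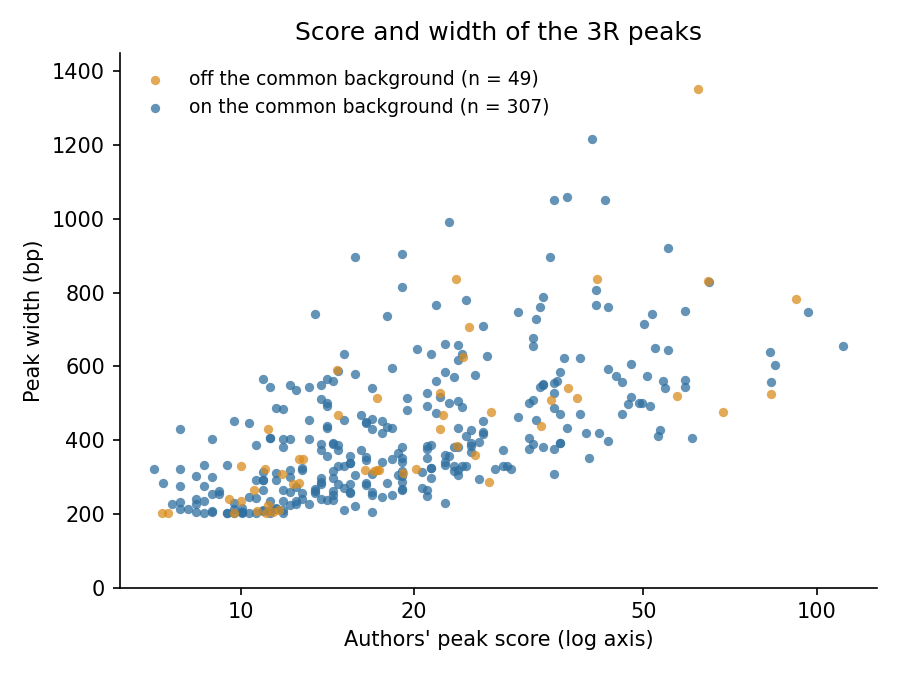
Width (bp) against the authors' score (log axis) for the 356 Sin3A peaks of 3R, 1 point per peak, with the 49 peaks off the common background in orange and the 307 on it in blue. Peaks at the minimum width of 201 bp all lie at low scores, and the widest peak, 1351 bp, scored 62.3.

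Sin3A peaks were more numerous on 3R, relative to protein-coding genes, than on 2L and 3L. Whether they were also less numerous than on X depended on the setting. The arm held 10.5 peaks per 100 protein-coding genes, against 7.08 on 2L, 6.35 on 3L and 13.0 on X. As ratios, 3R had 1.48 times the peaks per gene of 2L (exact 95% interval 1.24 to 1.78, adjusted p = 3.78e-05), 1.65 times those of 3L (1.37 to 1.99, adjusted p = 2.43e-07) and 0.803 times those of X (0.686 to 0.942, adjusted p = 0.0202). These are two-sided exact binomial tests with Benjamini-Hochberg adjustment over the 15 comparisons of 3R with another arm. That the arms differ in peaks per gene was known when they were chosen. Genes were counted in a table of a later release than the peaks, and peaks on separately named heterochromatic sequences were left out. Peaks and genes may thus not cover the same sequence. Per Mb between first and last peak, 3R held 12.8 peaks, against 8.38 on 2L, 7.26 on 3L and 13.1 on X. With this length as denominator 3R and X had a ratio of 0.980 and the exact test did not pass (adjusted p = 0.937). The difference from X also did not pass the exact test when peaks within 1 kb were merged (0.823, adjusted p = 0.0647) or when the heterochromatic sequences were added to their arms (0.864, adjusted p = 0.135), while those from 2L and 3L passed in each of these settings.

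The left arms also differed from 3R in how their peaks had been scored. Peaks off the common background made up 13.8% of 3R, against 51.1% of 2L (exact 95% interval 43.7 to 58.4%), 31.0% of 3L (24.3 to 38.5%) and 11.9% of X (8.38 to 16.2%). In two-sided Fisher's exact tests the share on 3R was lower than on 2L (adjusted p = 6.32e-19) and 3L (adjusted p = 2.18e-05), and the difference from X, 1.88 percentage points, did not pass (adjusted p = 0.889). Both left arms, with fewer peaks per gene than 3R, had a higher share, although 2L had the higher share of the 2 and also more peaks per gene than 3L. The part of this share in the difference in peak number was not tested.

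**Figure D2:**
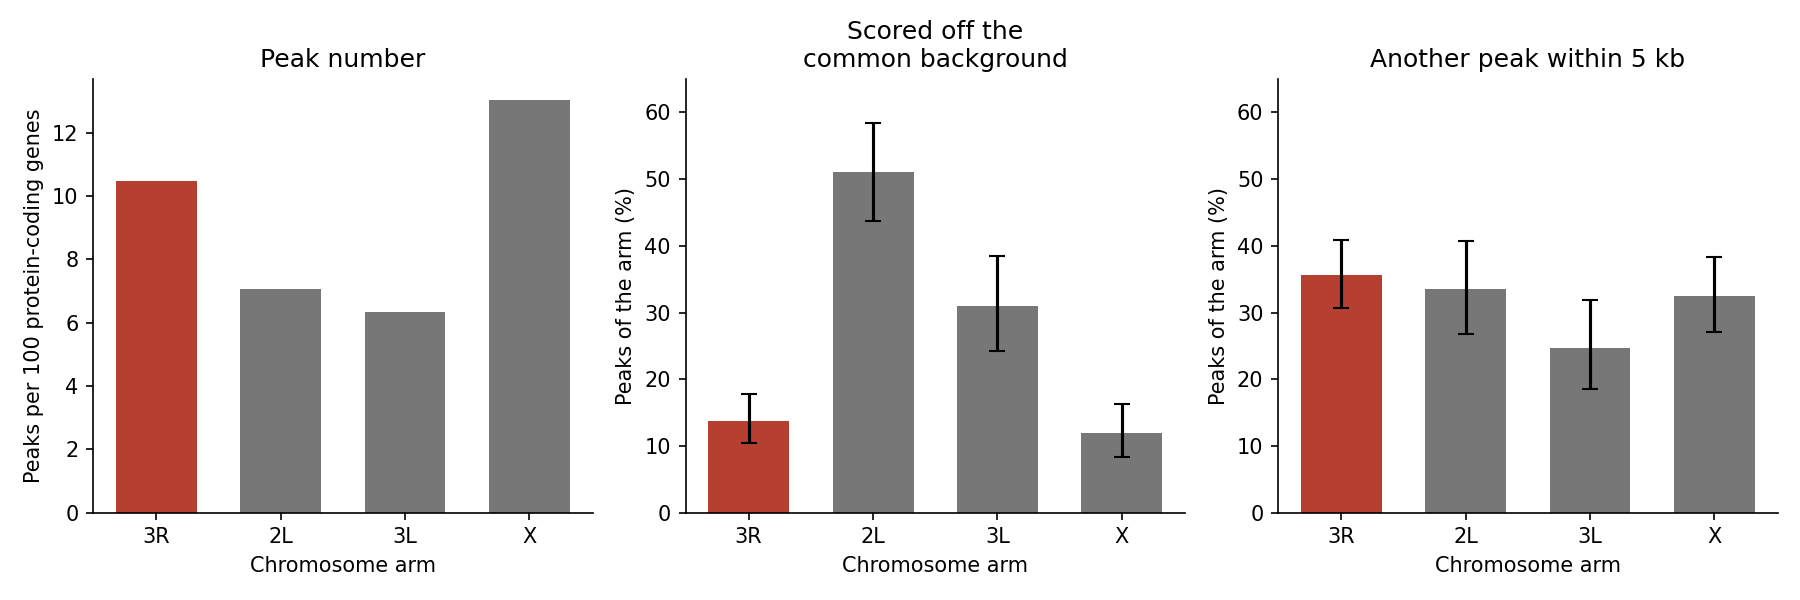
Peaks per 100 protein-coding genes, share of peaks scored off the common background and share with another peak within 5 kb on 3R (red), 2L, 3L and X (grey). Error bars on the shares are exact 95% intervals. 3R lies between X and both left arms in peak number, and near X in the share off the common background.

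In score and width, by contrast, a difference between 3R and the other arms was not resolved. The median score was 17.97 on 3R, against 16.95 on 2L, 18.7 on 3L and 18.6 on X. Of the 3R peaks 50.3% lay above the median pooled with 2L, against 47.9% of the 2L peaks, and the shares were as close with 3L (49.4% and 51.1%) and X (49.4% and 50.7%). Adjusted p-values of these median tests (two-sided Fisher's exact test on peaks above the pooled median) were 0.889, 0.937 and 0.937. The median width of 381 bp on 3R stood against 336 bp on 2L (exact 95% interval 317 to 376 bp), 380.5 bp on 3L and 380.5 bp on X. Only the contrast with 2L was sizeable, 45.5 bp, and it did not pass (adjusted p = 0.125). Among peaks on the common background alone the 3R median was 63 bp above that of 2L and the exact test passed (adjusted p = 0.00855). The 140 highest-scoring peaks of the whole list, those scoring at least 41.3, included 43 peaks of 3R (12.1% of the arm), against 12.8% of the 2L peaks, 9.20% of the 3L peaks and 12.2% of the X peaks.

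**Figure D3:**
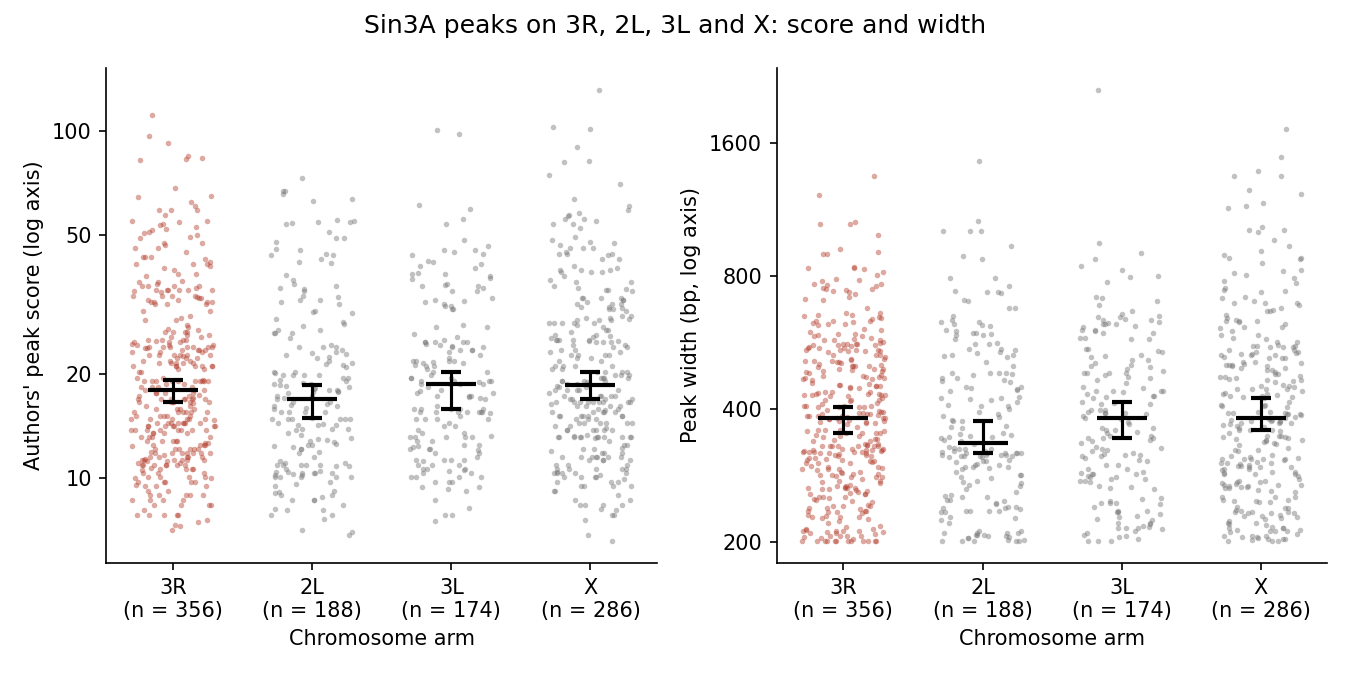
The authors' score (left, log axis) and width in bp (right, log axis) of every Sin3A peak on 3R (red), 2L, 3L and X (grey), with the median and its exact 95% interval in black. The 4 medians of score lie between 16.95 and 18.7 and their intervals overlap.

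Many peaks of 3R came close together. Another peak lay within 5 kb, midpoint to midpoint, for 127 of the 356 peaks (35.7%, exact 95% interval 30.7 to 40.9%), and within 1 kb for 52 (14.6%). The share within 5 kb was 33.5% on 2L, 24.7% on 3L and 32.5% on X. It was higher on 3R than on 3L (two-sided Fisher's exact test, adjusted p = 0.0328), and the differences from 2L (adjusted p = 0.889) and X (adjusted p = 0.847) did not pass. The difference from 2L, 2.16 points, was 7.16 points and passed the exact test with neighbours counted within 1 kb (adjusted p = 0.0458). It turned to -5.38 points in the 50% of all peaks with the highest score and to -3.53 points with peaks within 1 kb merged, and that from X, 3.16 points, turned to -2.54 points in the 50% with the highest score and to -6.30 points with neighbours within 20 kb, none of which passed. The contrast with 3L goes along with the higher density of peaks on 3R, whose part was not tested. The difference from 3L no longer passed the exact test in the 50% of all peaks with the highest score (8.96 points, adjusted p = 0.119), with peaks within 1 kb merged (8.76 points, adjusted p = 0.0647) or with neighbours counted within 1 kb (7.14 points, adjusted p = 0.050).

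When peaks within 5 kb were chained, the 127 peaks formed 52 groups, namely 35 pairs, 13 groups of 3, 2 groups of 4 and 2 groups of 5. The groups spanned 613 to 8939 bp, with a median of 3399 bp. Within the 35 pairs the higher score exceeded the lower by 4.89 in the median, with a range from 0.16 to 65.2.

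The largest groups were made mostly of low-scoring peaks. One group of 5, 3R:15468452-15474377, had scores of 16.9, 15.5, 28.5, 8.92 and 14.4, all on the common background. The other, 3R:23097851-23100882, packed scores of 12.4, 14.8, 12.6, 10.7 and 10.0 into 3032 bp, all off it. Its last pair was the closest by edges on the arm, with 44 bp between them. Only 1 of these 10 peaks was above the median score of the arm. The second group of 4, 3R:4388035-4389864, had scores of 17.97, 15.8, 12.2 and 19.1 in 1830 bp. Of the 17 groups with at least 3 peaks, the median of the highest scores was 28.5.

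**Figure D4:**
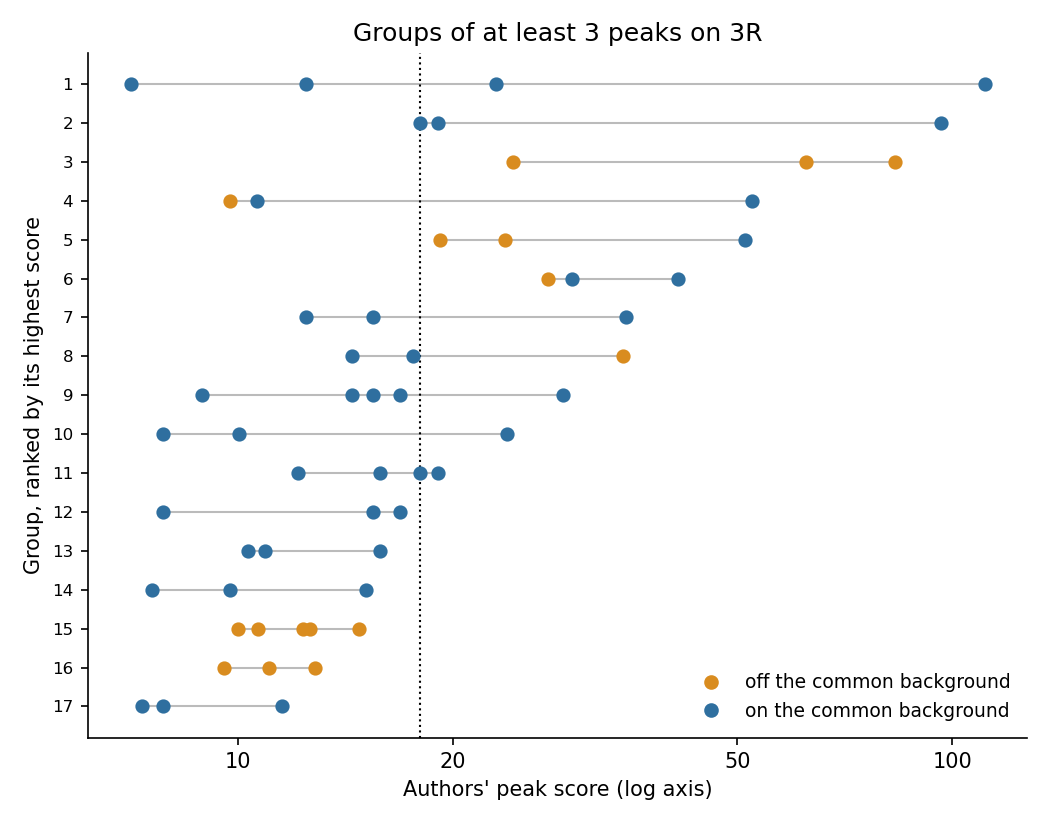
Scores (log axis) of the peaks in the 17 groups of at least 3 peaks on 3R, 1 row per group ranked by its highest score, with peaks off the common background in orange and on it in blue. The dotted line is the median score of the arm, 17.97. The first row runs from 7.08 to 111, and both groups of 5 peaks, in rows 9 and 15, lie mostly below the median.

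Grouped peaks scored lower than single ones on 3R. The median was 15.1 for the 127 grouped peaks (exact 95% interval 12.6 to 16.9) and 21.0 for the 229 single ones (17.97 to 22.6), a difference of -5.89. By the median test 47 of the grouped and 129 of the single peaks lay above the arm's median (two-sided Fisher's exact test, adjusted p = 0.00234 over the 4 tests within the arm). The 127 peaks belong to 52 groups, and taken per group the median was 19.9 for the highest-scoring member and 11.1 for the lowest. Each highest member was picked as the maximum of its group and the single peaks were not picked. The median of 19.9 therefore does not show that the highest members score like single peaks. The difference was as large among peaks on the common background, with medians of 14.8 for 102 grouped and 21.0 for 205 single peaks. It no longer passed the exact test, with the same direction, among the 50% of all peaks with the highest score (-2.49, adjusted p = 0.847), with peaks within 1 kb merged (-4.98, adjusted p = 0.0758) or with neighbours within 20 kb (-4.14, adjusted p = 0.0540). The grouped peaks had a median width of 341 bp and the single ones of 393 bp, a difference that did not pass the exact test (adjusted p = 0.0544). The difference in width passed the exact test with neighbours within 1 kb (-105 bp, adjusted p = 0.000945), within 20 kb (-74 bp, adjusted p = 0.0434) and among peaks on the common background (-59 bp, adjusted p = 0.0105), and with peaks within 1 kb merged it turned to 25 bp without passing (adjusted p = 0.912). On the other arms the grouped peaks differed from the single ones in median score by 1.09 on 2L, 0 on 3L and -2.06 on X. Whether 3R differs from them in this was not tested.

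Along the arm the peaks were spread over both sides. The lower-coordinate side of the midpoint held 182 peaks and the higher-coordinate side 174 (51.1% on the lower side, exact 95% interval 45.8 to 56.4%, two-sided exact binomial test, adjusted p = 0.759). In finer steps the number varied. Of 10 equal stretches the second, from 2.84 to 5.62 Mb, held 54 peaks and the fifth stretch, from 11.2 to 14.0 Mb, held 19. The second was also the one with the most grouping, 53.7% of its peaks having a neighbour within 5 kb, whereas the fifth had the least, 10.5%. The median score of the stretches ranged from 14.4 in the last to 24.3 in the seventh. In steps of 100 kb, 117 of 279 windows held no peak and 10 held at least 5, with 63 peaks in all.

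The fullest window, 3R:4800001-4900000, held 9 peaks with scores of 9.56 to 51.3 and a median of 22.2. Of these, 7 were scored off the common background at the tolerance of 0.01, and 6 of the 7 were consecutive over 30.4 kb. At a tolerance of 0.02 fewer were off it and this run did not hold. The next window, 3R:1400001-1500000, held 8 peaks with scores of 8.92 to 52.9, none of them off the common background. Both scoring classes thus occurred in the densest places. Besides the empty stretch already named, the longest were 529 kb (25046033 to 25574542) and 429 kb (6157415 to 6586404). The longest stretch without a peak was shorter on 3R, 658 kb, than on 2L (1333 kb), 3L (2166 kb) or X (1204 kb), a description of single extremes with no test. The median empty stretch between neighbouring peaks was 28.0 kb on 3R, against 47.0 kb on 2L, 59.4 kb on 3L and 20.2 kb on X.

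**Figure D5:**
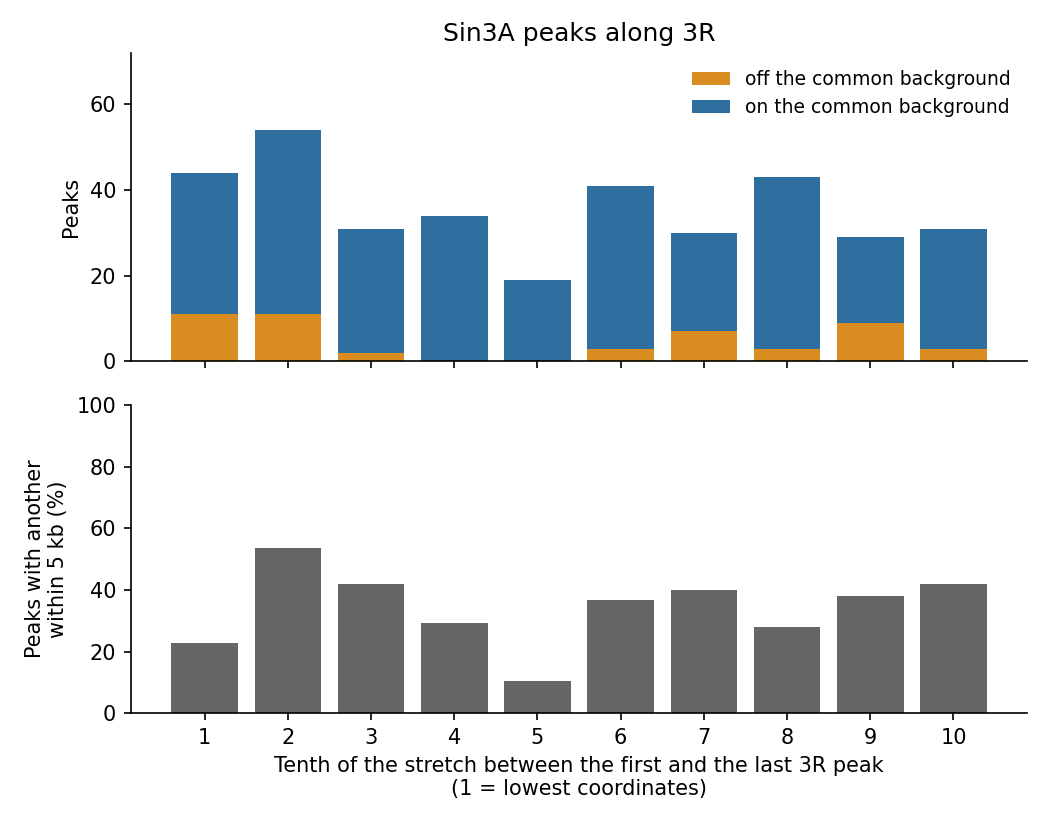
Number of Sin3A peaks (top) off (orange) and on (blue) the common background, and share of peaks with another within 5 kb (bottom), in 10 equal stretches between the first and the last 3R peak, from the lowest coordinates on the left. The second stretch holds 54 peaks and the fifth holds 19, and the fourth and the fifth hold none off the common background.

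Peaks off the common background stood partly in runs. Of the 49, 28 (57.1%) stood in 5 runs of at least 3 consecutive peaks, 13 stood alone and 4 runs had 2. At the lowest coordinates, 5 were consecutive from 254833 to 508835 and 3 from 637792 to 647136, with scores of 11.0 to 25.5. Then came the run of 6 in the fullest window, which did not hold at 0.02, and the run of 6 with the widest peak, both described above. The longest run, 8 peaks from 23078943 to 23114585, contained the off-background group of 5 and ended with a peak of score 57.2. The first and second of the 10 equal stretches held 11 each, the fourth and the fifth none. Peaks off the common background had a median width of 348 bp (exact 95% interval 318 to 468 bp), against 382 bp (353 to 403 bp) for those on it, and the median test did not pass (two-sided Fisher's exact test, adjusted p = 0.759). A neighbour within 5 kb was present for 51.0% of the peaks off it and 33.2% of those on it, given as a description.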

How the data were processed

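The data are 1 deposited list of peaks. Per the file headers it was made by MACS and uses FlyBase release 5. The submitters' processing notes name BWA, MACS2, the build BDGP5 and CASAVA in versions 1.7.0.2 and 1.7.0.3. The threshold, other settings, the treatment of duplicate reads and any pooling of replicates were not given in the sources used here. Each peak's score is the authors' value, with no statistic named per the file headers, and the depth of the libraries is unknown.

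From the list, width was end minus start plus 1, and neighbours were peaks with midpoints within 5 kb. The Poisson series was fitted to the tied scores of the whole list. Genes per arm (3396 protein-coding on 3R, 2655 on 2L, 2739 on 3L and 2192 on X) were counted in a RefSeq table of release 6, used for numbers only. Tests were two-sided exact binomial and Fisher's exact tests, adjusted by Benjamini-Hochberg over 15 comparisons between arms and 4 within 3R, with exact 95% intervals that cover counting error only. Python 3.11.15, NumPy 2.4.6, SciPy 1.17.1, pandas 2.3.3 and matplotlib 3.10.9 were used, and simulated data with known answers served to test the code. The peaks named are the 10 highest, 5 widest and 3 lowest in score, the highest off the common background, the largest groups, the fullest window, the longest empty stretches and the closest pair, and any other peak, group, window or run was chosen after its values were seen. The arm, the other arms, the scoring classes and the tests were chosen with earlier results of these data known. Alternatives were a stricter score, merging, other denominators, tolerances and neighbour distances, and subsets of peaks.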

Additional observations from a re-analysis of the deposited data

Results flagged for a closer look

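Outside the 3R arm itself, 28 further Sin3A peaks lay on 3RHet, the sequence that release 5 keeps apart as heterochromatin of the same arm. They were set aside because the list names that sequence separately. No expected number of peaks on 3RHet was at hand, so the count was not tested. The median score was 17.97 on 3R and 10.7 on 3RHet, where scores ran from 7.08 to 18.4. The median width was 381 bp on 3R and 267 bp on 3RHet, where widths ran from 201 to 479 bp. Off the common background were 13.8% of the peaks on 3R and 60.7% of those on 3RHet (17 of 28, exact 95% interval 40.6 to 78.5%). None of these differences was tested.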

How the results depend on the processing

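Of 75 recomputed values, 45 kept their direction and their side of the threshold or, for correlations, stayed within the 95% interval of the first value. Another 12 changed direction, none of them past the threshold in either setting. The ratios of peaks per gene to 2L and 3L and the lower shares off the common background than on 2L and 3L passed in every alternative run for them. The ratio to X did not pass with merging within 1 kb (0.823), with length as denominator (0.980) or with heterochromatic sequences added (0.864). In the 50% of all peaks with the highest score, the median score minus that of 3L turned to 1.68, the width minus those of 3L and X to -4.50 and -23.5 bp, the share with a neighbour within 5 kb minus those of 2L and X to -5.38 and -2.54 points, and the width of peaks off minus on the common background to 37.5 bp. There the neighbour share minus that of 3L (8.96) and the score of grouped minus single peaks (-2.49) no longer passed, and r and rho of score with width fell to 0.389 and 0.484. With peaks within 1 kb merged, the score minus that of 3L turned to 0.040, the share off the common background minus that of X to -0.157, the neighbour share minus that of 2L to -3.53, the width of grouped minus single peaks to 25 bp and that of peaks off minus on the common background to 31 bp. There the neighbour share minus that of 3L (8.76) and the score of grouped minus single peaks (-4.98) no longer passed, and r and rho were 0.399 and 0.551. With neighbours within 1 kb, the share minus that of 2L (7.16) and the narrower width of grouped peaks (-105 bp) passed, and the share minus that of 3L (7.14) did not. With neighbours within 20 kb, the share minus that of X turned to -6.30, the score of grouped minus single peaks (-4.14) no longer passed, and their width (-74 bp) did. Among peaks on the common background alone, the width minus that of 2L (63 bp) and the width of grouped minus single peaks (-59 bp) passed. Stricter scores and merging leave fewer peaks, and the cause was not tested otherwise. At a tolerance of 0.02 the peaks off the common background on 3R were 42, and at the first tolerance 49. One tied score, 17.23, held by 15 peaks of the whole list and 2 of them on 3R, lay 0.0137 from the series, between both tolerances. Its peaks counted as off the common background at 0.01 and as on it at 0.02. On 3R the scores 16.88 and 17.61 had inferred pileups of 139 and 141, and no peak was given the pileup between them. The peaks at 17.23 may therefore belong on the series, and the shares off it at 0.01 may be slightly too high. No paired analysis was possible because libraries have no values of their own in the list, and neither could a replicate be left out. Start sites, annotation and motifs need a release 5 genome and were not analysed here. The unknown depth limits every comparison.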
